A study of Arabidopsis thaliana with 12 samples.

Results

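The 3 genes described here, PIP2-3, TIP2-2 and NIP6-1, are aquaporins, channel proteins that let water or small uncharged solutes cross membranes. They were taken by locus (AT2G37180, AT4G17340 and AT1G80760) from the deposited tables, which list 656 genes for either organ, 608 for leaf and 65 for root. All 3 aquaporins are in the leaf table and 0 of 3 in the root table, and both tables give values for all 12 libraries. The libraries were made from *Arabidopsis thaliana* seedlings of the wild-type Wassilewskija (WS) ecotype, 11 days old, grown on solid medium under constant light in Veggie plant growth units and fixed in RNAlater. The groups were spaceflight leaf, ground control leaf, spaceflight root and ground control root, with 3 libraries each. Spaceflight plates grew on the International Space Station (ISS), and ground control plates in a chamber that replayed the temperature, CO2 and light of the station. A replicate was 1 plate, from which 3 plants were pooled for RNA, so spaceflight and the flight unit that carried it cannot be told apart. Whether roots were taken whole or as tips is not settled, since the paper and the labels differ.

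Plant aquaporins fall into families named after the membrane or protein in which they were first seen. Plasma membrane intrinsic proteins (PIPs) carry water into and out of cells, and tonoplast intrinsic proteins (TIPs) sit in the membrane of the vacuole, where they help a cell to adjust its volume. NOD26-like intrinsic proteins (NIPs) carry other small solutes as well, among them boric acid. PIP2-3 is also known as RD28, a name that stands for responsive to desiccation, TIP2-2 is a delta-type tonoplast channel, and NIP6-1 is a boric acid channel known for supplying boron to young shoot tissue. In TAIR10.1, PIP2-3 lies on the plus strand of chromosome 2 from 15617635 to 15619155 and has 4 exons that encode 285 residues. TIP2-2 lies on the plus strand of chromosome 4 from 9698940 to 9700472 and has 2 exons that encode 250 residues. NIP6-1 lies on the minus strand of chromosome 1 from 30350539 to 30352208 and has 5 exons that encode 305 residues.

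The pore of an aquaporin is lined by a pair of short loops, each with asparagine and proline followed in most members by alanine. The coding sequences of both loops are shown because they are what the 3 genes share and where NIP6-1 departs. They were read from the RefSeq models of the TAIR10.1 genome of the Columbia ecotype, 5′ to 3′, with the codons of this signature in capitals:
PIP2-3 first loop, codon 105: ggtcacataAACCCTGCGgtgacgttt
TIP2-2 first loop, codon 83: ggacaccttAACCCCGCCgtgacactc
NIP6-1 first loop, codon 139: gcacatctcAATCCGGCTgtaaccatt
PIP2-3 second loop, codon 226: accggtatcAACCCGGCTaggagtttc
TIP2-2 second loop, codon 197: ggttccatgAACCCGGCCaggtcattt
NIP6-1 second loop, codon 250: gcttcgatgAACCCTGTAagaacactg
In the second loop of NIP6-1 the third codon is one for valine in place of alanine. Over whole coding sequences the 3 genes were 62.4 to 63.8% identical in their aligned bases.

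PIP2-3 has a close relative that bears on its values. PIP2-2 (AT2G37170) lies 2612 bases away on the opposite strand, with the start of each gene facing the other, and its coding sequence was 94.8% identical to that of PIP2-3. Of the 1120 windows of one read length in the PIP2-3 transcript, 142 (12.7%) occur unchanged in the PIP2-2 transcript. The longest stretch in common is 242 bases, from coding base 175 to 416 of PIP2-3, and is shown because reads that fall wholly within it cannot be assigned to either gene by sequence. The codons of the first loop are in capitals:
PIP2-3 and PIP2-2, shared stretch: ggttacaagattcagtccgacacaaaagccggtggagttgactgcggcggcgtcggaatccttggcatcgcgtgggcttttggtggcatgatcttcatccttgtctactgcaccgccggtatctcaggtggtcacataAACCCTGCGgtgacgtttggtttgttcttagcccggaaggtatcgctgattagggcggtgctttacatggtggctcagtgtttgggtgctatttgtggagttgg
The share of PIP2-3 reads that RSEM took from such windows was not tested, and PIP2-2 is in neither table. TIP2-2 shared 0 windows of that length with another aquaporin transcript, and its nearest relative was TIP2-3 at 81.5% identity. NIP6-1 also shared 0 windows, its nearest relative being NIP5-1 at 68.4% identity, but 26 bases at its 3′ end overlap the antisense gene AT1G80750, outside the coding sequence. The paper names a strand-specific kit and the labels one that does not keep strand, so reads in these 26 bases may belong to either gene.

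The level of each gene is given in FPKM, a fragment count scaled to transcript length and to the size of the library, which can be compared between genes. Since no counts were used here, the depth of the libraries is unknown and the spread between plates is the only measure of error. PIP2-3 stood at 44.7, 43.5 and 42.3 FPKM in the spaceflight leaves, against 94.3, 90.0 and 94.2 FPKM in the ground control leaves. In roots it stood at 112, 123 and 93.1 FPKM in spaceflight, against 136, 147 and 152 FPKM in ground control. The lowest libraries were therefore the spaceflight leaves and the highest the ground control roots, with the ranges of spaceflight roots and ground control leaves overlapping between them. TIP2-2 stood at 42.6, 51.8 and 40.9 FPKM in the spaceflight leaves, against 77.8, 66.9 and 139 FPKM in the ground control leaves. Its root levels were 273, 217 and 203 FPKM in spaceflight, against 340, 311 and 316 FPKM in ground control. The 4 groups of TIP2-2 did not overlap, and ground control leaf replicate 3 stood well above the other ground control leaves. NIP6-1 had the opposite organ pattern, with 36.6, 29.6 and 22.9 FPKM in the spaceflight leaves, against 43.3, 62.4 and 75.0 FPKM in the ground control leaves. Its root levels were 14.6, 13.1 and 9.49 FPKM in spaceflight, against 9.14, 7.79 and 8.03 FPKM in ground control. Its 4 groups did not overlap either, although the lowest spaceflight root was close to the highest ground control root. The share of listed genes with 4 groups apart was not counted. For single pairs of groups it is common, since leaf and root were apart for 80.5% of the 656 genes in spaceflight and 83.4% in ground control. The 2 root groups were apart for 34.5%.

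**Figure D1:**
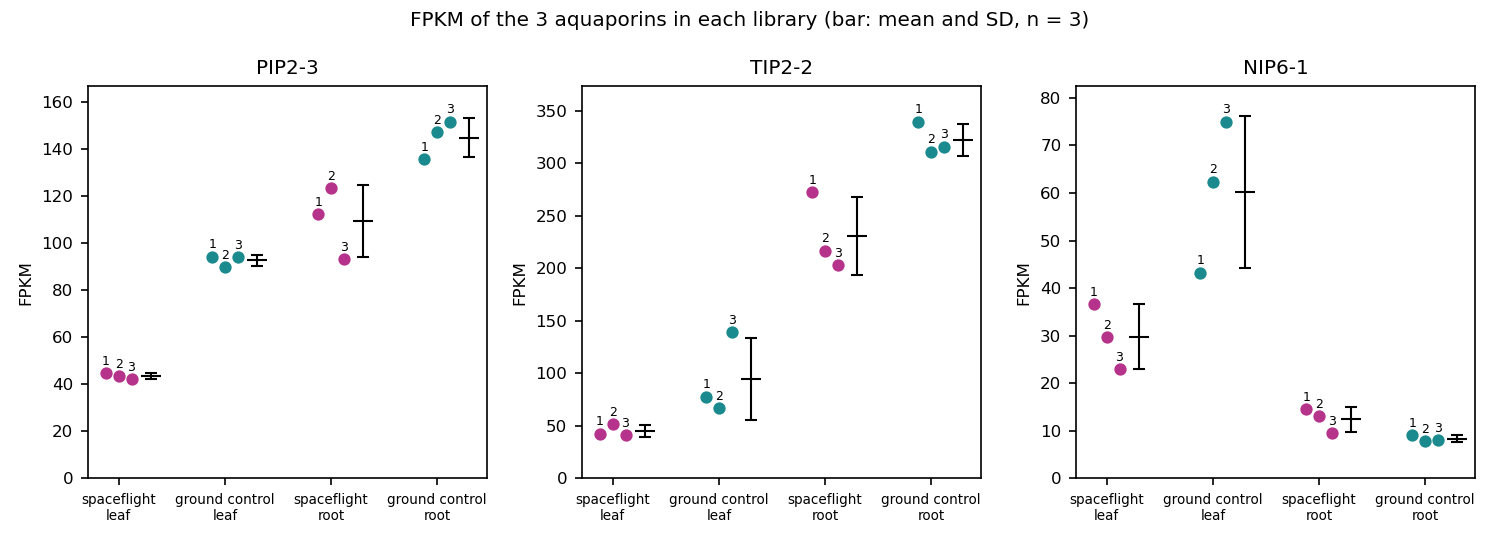
FPKM of PIP2-3, TIP2-2 and NIP6-1 (vertical axes, each starting at 0) in the 12 libraries, with 1 point per library numbered by replicate and a bar for the mean and SD of each group (n = 3). Every spaceflight leaf is below every ground control leaf for the 3 genes, whereas in root the spaceflight libraries are lower for PIP2-3 and TIP2-2 and higher for NIP6-1.

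The titles of the samples set the organ here, because a material field in the labels has leaf and root exchanged in 2 of the 4 groups. Of 18 root marker genes, 1, the root beta-glucosidase BGLU21, is in the tables, and of the 13 leaf markers on the list 0 are. BGLU21 ranged from 0.82 to 2.12 FPKM in spaceflight leaves, from 0.34 to 0.65 FPKM in ground control leaves, from 521 to 751 FPKM in spaceflight roots and from 762 to 968 FPKM in ground control roots, which follows the titles. In leaf libraries BGLU21 stood at 0.153 to 0.282% of its level in the root library of the same number in spaceflight and at 0.0409 to 0.0671% in ground control. TIP2-2, which is also a gene of higher root level, stood at 15.6 to 23.9% of its root level in spaceflight leaves and at 21.5 to 44.0% in ground control leaves. The leaf difference of BGLU21 was 0.62 (limma adjusted p = 0.0656). BGLU21 is in the leaf table, so the authors listed it for a leaf difference in these libraries and its sign was selected. In ground control leaf replicate 3, the leaf library with most TIP2-2, BGLU21 was 0.42 FPKM. The part of root RNA in the leaf values of TIP2-2 was not tested.

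The 3 aquaporins were lower in spaceflight leaves, at 0.469 (PIP2-3), 0.476 (TIP2-2) and 0.494 (NIP6-1) of their ground control means. The authors listed only genes with a fold change over 2, so smaller falls could not appear and the likeness is read no further. PIP2-3 averaged 43.5 ± 1.17 FPKM in spaceflight leaves and 92.8 ± 2.44 FPKM in ground control leaves (SD, n = 3 each), a fall of 1.08 on the log2(FPKM + 1) scale (standard error 0.27, limma adjusted p = 0.0039). TIP2-2 averaged 45.1 ± 5.87 FPKM in spaceflight leaves and 94.6 ± 38.9 FPKM in ground control leaves (SD, n = 3 each), with a log2 difference of -0.99 (standard error 0.33, limma adjusted p = 0.0137). NIP6-1 averaged 29.7 ± 6.84 FPKM in spaceflight leaves and 60.2 ± 16.0 FPKM in ground control leaves (SD, n = 3 each), with a log2 difference of -0.98 (standard error 0.32, limma adjusted p = 0.0119). Thus 3 of 3 fell, and 93.4% of the 608 genes in the leaf table passed the same test in either direction and 24.0% as lower. The authors listed these genes for a leaf difference in the same libraries, so these p-values are no independent evidence of it and the count is read no further. The leaf groups did not overlap for any of the 3, all lower in spaceflight, as for 23.7% of the leaf table. In the leaf table the 3 genes were among 162 with a negative difference, whose median was -1.10, and the median over all 608 genes was 1.09. Without ground control leaf replicate 3 the difference of TIP2-2 was -0.67 (limma adjusted p = 0.0903) and that of NIP6-1 was -0.81 (limma adjusted p = 0.0605), whereas PIP2-3 passed without any 1 of the 6 leaf libraries.

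PIP2-3 was also among the least variable of the listed genes in leaf. Its SD of log2(FPKM + 1) was 0.038 in both spaceflight and ground control leaves (n = 3 each), where the median over the 608 genes was 0.37 in spaceflight and 0.29 in ground control. Only 1.48% of the genes had a smaller SD than PIP2-3 in spaceflight leaves, and 1.64% in ground control leaves. By mean FPKM it ranked 170 in spaceflight leaves and 50 in ground control leaves among the 656 listed genes. No comparison was made with genes of like level. The other aquaporins did not share this: 17.8% of the genes in spaceflight leaves and 85.5% in ground control leaves varied less than TIP2-2, and 40.8% and 68.1% varied less than NIP6-1. In roots, 54.1% of 656 genes varied less than PIP2-3 in spaceflight and 24.8% in ground control.

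In roots, whose values did not place the genes in the leaf table, 0 of 3 aquaporins passed the adjusted limma test, against 10.7% of the 656 genes of either table. PIP2-3 had a mean of 109.6 ± 15.3 FPKM in spaceflight roots, against 145 ± 8.30 in those of ground control (SD, n = 3 each), a log2 difference of -0.41 (standard error 0.13, limma adjusted p = 0.0917). TIP2-2 had a mean of 231 ± 36.8 FPKM in spaceflight roots, against 322 ± 15.3 in those of ground control (SD, n = 3 each), a log2 difference of -0.49 (standard error 0.13, limma adjusted p = 0.0671). NIP6-1 had a mean of 12.4 ± 2.63 FPKM in spaceflight roots, against 8.32 ± 0.72 in those of ground control (SD, n = 3 each), a log2 difference of 0.51 (standard error 0.17, limma adjusted p = 0.0959). At an unadjusted limma p under 0.05 the count was 3 of 3, against 30.8% of the 656 genes, those listed for root included. The groups did not overlap for 3 of 3 aquaporins, 2 lower and 1 higher in spaceflight, as was so for 34.5% of the 656 genes (12.5% lower, 22.0% higher) and for 28.6% of the 591 genes that are only in the leaf table. Leaving out spaceflight root replicate 1 took TIP2-2 past the test (log2 difference -0.62, limma adjusted p = 0.042) and leaving out spaceflight root replicate 3 did so for NIP6-1 (log2 difference 0.67, limma adjusted p = 0.0245).

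In the spaceflight root libraries, 4 listed genes of photosynthesis, whose levels were far higher in leaf, were also higher, as NIP6-1 was. The tables list 4 such genes outside the marker list, LHCB1.2, LHCB2.2 and LHCB4.2 of the light-harvesting antenna and PSAD2 of photosystem I, which were picked out after their values were seen and which the authors listed for root. LHCB1.2 stood at 158, 235 and 97.7 FPKM in spaceflight roots, against 76.9, 76.1 and 69.4 FPKM in those of ground control. The root differences of the 4 genes were 0.97 to 1.13 on the log2 scale (limma adjusted p of 0.0564 to 0.0924), and in each the spaceflight and ground control roots did not overlap. The root level of LHCB1.2 was 1.03 to 3.55% of the leaf level of the same number in spaceflight and 0.586 to 0.816% in ground control. For NIP6-1 these figures were 39.9 to 44.3% in spaceflight and 10.7 to 21.1% in ground control. Other genes of higher leaf level did not all follow, as the 5 listed genes most like NIP6-1 show. Mean FPKM was higher in spaceflight than in ground control roots for AT5G54585 (2.63 against 1.02) and HSP18.5 (36.6 against 33.1). It was lower for DFL2 (5.85 against 6.16), FUM2 (0.95 against 0.997) and AT3G44450 (6.38 against 7.78). The part of leaf-expressed RNA in the root values of NIP6-1 was not tested.

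**Figure D2:**
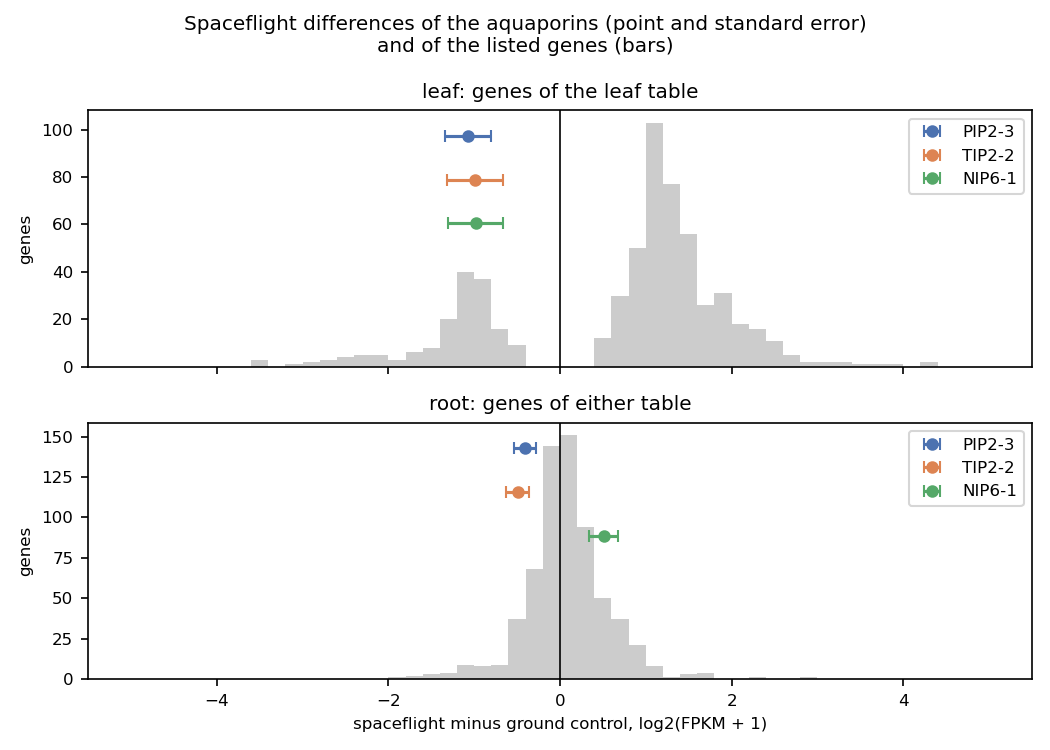
Difference of spaceflight from ground control in log2(FPKM + 1) (horizontal axis) for the 3 aquaporins, as points with standard errors at arbitrary heights, over the number of listed genes at each difference (bars, vertical axis). In leaf the points lie between -1.08 and -0.98, and in root at -0.41, -0.49 and 0.51.

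Leaf and root differed in the FPKM of all 3 aquaporins under both treatments, with PIP2-3 and TIP2-2 lower in leaf and NIP6-1 higher. FPKM is relative to the whole library, and no scaling between the organs was made. LHCB1.2, for one, ran from 4437 to 12981 FPKM in leaf and from 69.4 to 235 FPKM in root. The part of such differences in library make-up in these contrasts was not tested. Organ levels did not choose the genes directly, but the leaf libraries in these contrasts are those whose difference listed them. In spaceflight, log2(FPKM + 1) in leaf minus that in root was -1.30 for PIP2-3 (standard error 0.17, limma adjusted p = 7.3e-06), -2.33 for TIP2-2 (standard error 0.25, limma adjusted p = 9.1e-07) and 1.19 for NIP6-1 (standard error 0.25, limma adjusted p = 0.000475). In ground control it was -0.64 for PIP2-3 (limma adjusted p = 0.00361), -1.83 for TIP2-2 (limma adjusted p = 1e-05) and 2.68 for NIP6-1 (limma adjusted p = 1.33e-07). The organ difference is common among the listed genes, of which 81.6% passed in spaceflight (42.1% lower and 39.5% higher in leaf) and 79.9% in ground control (49.5% lower and 30.3% higher in leaf). The leaf and root ranges did not overlap for 80.5% of the genes in spaceflight and 83.4% in ground control. None of these 6 calls was lost under any alternative that was run.

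The gap between the organs was itself different in spaceflight for NIP6-1. Its leaf level was 2.51, 2.26 and 2.42 times its root level in the spaceflight replicates, against 4.73, 8.01 and 9.34 times in the ground control replicates. The spaceflight effect in leaf minus that in root was -1.49 on the log2 scale (standard error 0.35, limma adjusted p = 0.004), and NIP6-1 is the member with a negative difference in leaf and a positive one in root, although that in root did not pass the adjusted test. PIP2-3 had leaf to root ratios of 0.398, 0.352 and 0.455 in spaceflight, against 0.695, 0.610 and 0.620 in ground control. Its difference of effects was -0.67 (standard error 0.24, limma adjusted p = 0.0268), a call that did not hold with the leaf and root of a replicate kept as a block (limma adjusted p = 0.0714). It was also lost without spaceflight root replicate 1 or 2 or ground control root replicate 1 or 2 (limma adjusted p of 0.0526 to 0.0664). TIP2-2 had ratios of 0.156, 0.239 and 0.201 in spaceflight, against 0.229, 0.215 and 0.440 in ground control. Its difference of effects did not pass (-0.50, standard error 0.35, limma adjusted p = 0.204). Of the 656 listed genes, 73.5% passed this test, 19.4% with a negative difference, and the leaf part of it is the difference for which the authors listed most of them. Among the 191 genes with a negative difference of effects, 127 passed, so these p-values are no independent evidence that the organs differ.

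**Figure D3:**
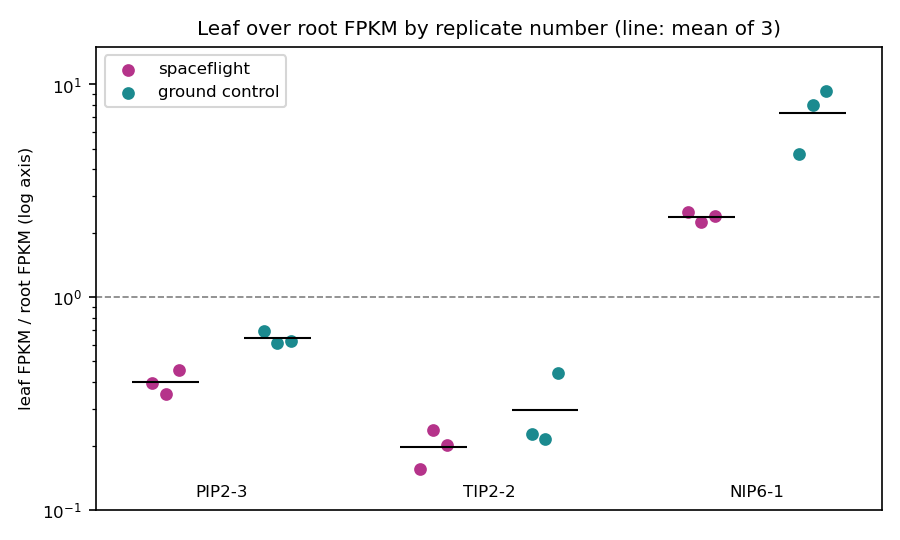
Leaf FPKM divided by root FPKM of the same replicate number (vertical log axis) for each aquaporin in spaceflight and ground control, with 1 point per replicate and a line at the mean of 3. NIP6-1 lies above 1 in both treatments, between 2.26 and 2.51 in spaceflight and between 4.73 and 9.34 in ground control, and the other genes lie below 1.

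Summed over the 3 genes, aquaporin FPKM was 118 ± 10.6 in spaceflight leaves and 248 ± 52.5 in ground control leaves (SD, n = 3 each). In roots the sum was 353 ± 47.0 FPKM in spaceflight and 476 ± 9.06 FPKM in ground control (SD, n = 3 each). The make-up of the sum in leaf was close between treatments, which restates the like leaf ratios of genes listed under the same cut. PIP2-3 held 36.9 ± 2.64% of it in spaceflight leaves and 38.5 ± 6.99% in ground control leaves, TIP2-2 38.1 ± 3.56% and 37.3 ± 7.37%, and NIP6-1 25.0 ± 4.12% and 24.3 ± 4.18% (SD, n = 3 each), so each difference was smaller than the spread between plates. In roots TIP2-2 made up most of the sum, with 65.3 ± 3.55% in spaceflight and 67.7 ± 2.05% in ground control (SD, n = 3 each). The share of NIP6-1 in roots was 3.66, 3.72 and 3.11% in spaceflight, against 1.89, 1.67 and 1.69% in ground control. These sums cover 3 of the 35 aquaporin genes of *Arabidopsis*, and fewer cells of a type and less RNA per cell cannot be told apart in them.

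**Figure D4:**
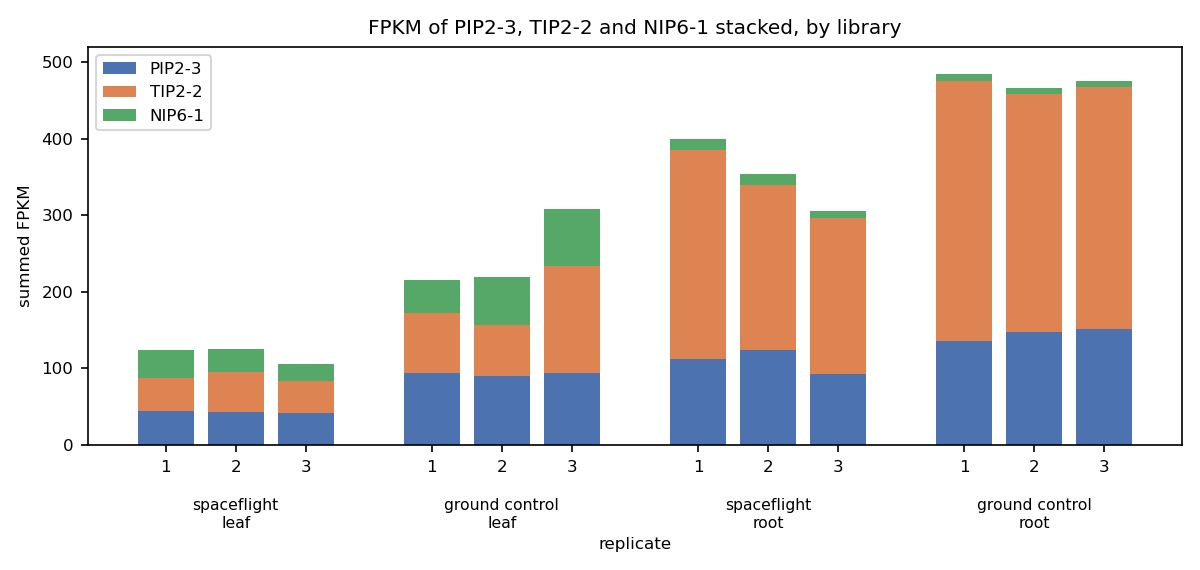
FPKM of PIP2-3, TIP2-2 and NIP6-1 stacked for each of the 12 libraries (vertical axis, starting at 0), with replicates numbered within the 4 groups. The sums run from 106 to 125 FPKM in spaceflight leaves, 215 to 308 in ground control leaves, 305 to 399 in spaceflight roots and 466 to 485 in ground control roots.

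The sequences upstream of the 3 genes are shown as a description, since each gene was lower in spaceflight leaves. A cause in common was not tested. Each is the 250 bases before the annotated start in TAIR10.1, on the strand of the gene, and capitals mark the TATA box core TATAAA:
PIP2-3, chr2:15617385-15617634: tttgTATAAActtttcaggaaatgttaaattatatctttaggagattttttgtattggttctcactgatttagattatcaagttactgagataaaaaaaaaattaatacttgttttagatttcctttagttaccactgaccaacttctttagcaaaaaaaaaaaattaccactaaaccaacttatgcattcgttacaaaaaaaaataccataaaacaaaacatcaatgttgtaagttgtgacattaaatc
TIP2-2, chr4:9698690-9698939: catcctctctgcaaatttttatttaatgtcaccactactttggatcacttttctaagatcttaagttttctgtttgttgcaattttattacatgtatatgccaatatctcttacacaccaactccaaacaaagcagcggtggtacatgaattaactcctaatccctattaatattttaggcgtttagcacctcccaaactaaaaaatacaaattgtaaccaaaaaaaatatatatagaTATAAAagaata
NIP6-1, chr1:30352209-30352458: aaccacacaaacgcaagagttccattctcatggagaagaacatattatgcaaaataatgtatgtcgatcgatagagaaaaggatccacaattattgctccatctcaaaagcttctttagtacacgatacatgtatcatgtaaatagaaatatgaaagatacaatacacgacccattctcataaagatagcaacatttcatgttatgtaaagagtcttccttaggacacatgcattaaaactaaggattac
On both strands, TATAAA occurred once before PIP2-3, beginning 246 bases from the start, and once before TIP2-2, beginning 12 bases from it. These are matches of letters only, and whether either serves as a TATA box was not tested. It occurred 0 times before NIP6-1, and in 47.3% of the 27443 promoters of protein-coding genes of the same length. The core of the ABA response element (ACGTG), the core of the dehydration response element (CCGAC), the evening element of clock genes (AAAATATCT) and the paired unit of the heat shock element (GAANNTTC) had 0 matches in the 3 windows. The shares of all promoters with a match were 22.9%, 11.97%, 2.36% and 9.55% in that order. No match says only that these letters are not in these windows.

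No other gene on the lists of aquaporins and boron transport is in the tables. These hold fewer genes than the lists the paper describes, so absence from them does not show that a gene was not called. The other 32 of 35 aquaporin loci are in neither table and were not analysed here, and of 6 loci of boron transport NIP6-1 alone is listed. The leaf table holds 4 of 24 genes known from water deficit, and in spaceflight leaves 2 of them fell, 1 rose and 1 missed the threshold, where 24.0% of the leaf table passed as lower and 69.4% as higher. RD20, a calcium-binding protein of oil bodies that responds to drought, stood at 6.77, 6.11 and 7.0 FPKM in spaceflight leaves, against 22.5, 11.4 and 17.2 FPKM in ground control leaves (limma adjusted p = 0.00458). DREB2A, which activates genes of dehydration and heat, stood at 2.96, 2.13 and 2.05 FPKM in spaceflight leaves, against 3.05, 9.46 and 5.49 FPKM in ground control leaves (limma adjusted p = 0.0229). It is also the 1 gene of the 24 in the root table, with 10.2, 5.95 and 5.01 FPKM in spaceflight roots, against 15.6, 26.6 and 11.9 FPKM in those of ground control (log2 difference -1.22, limma adjusted p = 0.0773). RD26, an NAC transcription factor of the ABA response, was the one that rose, with 6.37, 14.82 and 14.96 FPKM in spaceflight leaves and 5.71, 5.03 and 4.05 FPKM in ground control leaves (limma adjusted p = 0.0127). NCED3, an enzyme of ABA synthesis, did not pass, with 0.49, 0.73 and 0.65 FPKM in spaceflight leaves and 1.20, 2.47 and 0.80 FPKM in ground control leaves (limma adjusted p = 0.0985).

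The listed genes most like each aquaporin were found by Pearson's r of log2(FPKM + 1) over the 12 libraries, given here as a description because the libraries share plates and most of these genes were listed for a leaf difference. Most like PIP2-3 were BAG6 (r = 0.965), CLPB4 (0.965), KCS1 (0.959), CDC48D (0.959) and OCT5 (0.951). BAG6, a co-chaperone, stood at 2.41 ± 0.35 FPKM in spaceflight leaves, 5.30 ± 0.232 in ground control leaves, 7.87 ± 0.171 in spaceflight roots and 8.47 ± 0.42 in ground control roots (SD, n = 3 each). Most like TIP2-2 were PAE2 (r = 0.989), AT1G76240 (0.971), AT3G52740 (0.970), CYP81D11 (0.964) and AT3G44510 (0.962). PAE2, a pectin acetylesterase, stood at 0.44 ± 0.0721 FPKM in spaceflight leaves, 2.83 ± 1.75 in ground control leaves, 12.6 ± 1.58 in spaceflight roots and 16.7 ± 2.92 in ground control roots (SD, n = 3 each). Most like NIP6-1 were AT5G54585 (r = 0.971), HSP18.5 (0.964), DFL2 (0.961), FUM2 (0.960) and AT3G44450 (0.958). AT5G54585 stood at 2.63 ± 0.722 FPKM in spaceflight roots against 1.02 ± 0.58 in those of ground control, beside 7.31 ± 1.75 FPKM in spaceflight leaves and 19.2 ± 1.87 FPKM in ground control leaves (SD, n = 3 each), and it is listed for both organs. Among the members, PIP2-3 and TIP2-2 had an r of 0.915, PIP2-3 and NIP6-1 of -0.517 and TIP2-2 and NIP6-1 of -0.721, values set largely by the organs.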

How the data were processed

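The deposited tables, one per organ, hold the FPKM of each listed gene in 12 RNA-seq libraries. The authors used FastQC for read quality, Trimmomatic for trimming, STAR for mapping to TAIR10 and RSEM for the FPKM of each gene, with no tool version in the sources used here. The unit is named in no header. FPKM was inferred because the paper names it, beside expected counts, as what was taken from RSEM. The authors' deposited group mean CPM, divided by the group mean of the library values, increased with length across genes. Spearman's rho was 0.793 for 606 genes in leaf and 0.755 for 63 in root. This shows values scaled to length, but it would hold for any such unit and does not single out FPKM. The tables list only genes that the authors called with edgeR (CPM above 5 in at least 3 libraries, FDR under 0.05, fold change over 2). The tables used here are shorter than the lists the paper describes at these thresholds. The authors' columns of fold changes and p-values were not used.

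Here log2(FPKM + 1) was fitted with limma 3.58.1 (R 4.3.3), two-sided with Benjamini-Hochberg adjustment: in leaf over the 608 genes of the leaf table and the 6 leaf libraries, in root over the 656 genes of either table and the 6 root libraries, and for organs and the difference of effects over 656 genes and 12 libraries in 4 groups. A call is an adjusted p under 0.05. On this scale changes of low genes are understated, and counting error has no interval here for lack of counts. The members and lists were chosen with earlier results of these data known. Genes named are the 3 members, listed genes of the other lists (up to 4 each, by size of leaf difference) and the 5 listed genes most like each member. Each plate was a replicate, so the leaf and root library of one number were taken as 1 plate. Their deviations from group means over 656 genes correlated at -0.0179 to 0.0863 in spaceflight and at 0.0778 to 0.450 in ground control. Nothing in the sources ties spaceflight to ground control plates of one number. The fits were tested on simulated data. Alternatives were other pseudocounts, a filter on low FPKM, a variance trend, other gene sets, 1 fit of all libraries, a replicate block and leaving out each library. Gene models and sequences are those of RefSeq on TAIR10.1, which lists 606 of 608 leaf and 64 of 65 root identifiers. The plants were WS, not Columbia. Python 3.11.15, numpy 2.4.6, pandas 2.3.3, scipy 1.17.1, biopython 1.88 and matplotlib 3.10.9 were used for the rest.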

Additional observations from a re-analysis of the deposited data

Results flagged for a closer look

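NIP6-1 and PIP2-3 passed a test of the spaceflight effect in leaf minus that in root, for which the leaf part had been selected. For NIP6-1 the effect in leaf minus that in root was -1.49 on the log2(FPKM + 1) scale (limma adjusted p = 0.004). Every spaceflight leaf was below the ground control leaves, as for 23.7% of the leaf table. Every spaceflight root was above the ground control roots, as for 22.0% of the 656 genes, but the nearest libraries stood at 9.49 and 9.14 FPKM. The root difference itself did not pass (limma adjusted p = 0.0959). For PIP2-3 the difference was -0.67 (limma adjusted p = 0.0268), with spaceflight libraries below ground control in both organs. That was so for 23.7% of the leaf table in leaf and for 12.5% of the 656 genes in root. Its root difference did not pass either (limma adjusted p = 0.0917). The PIP2-3 call was lost with leaf and root of a plate kept as a block (limma adjusted p = 0.0714) and without 1 of 4 root libraries, spaceflight replicate 1 or 2 or ground control replicate 1 or 2 (limma adjusted p of 0.0526 to 0.0664). Of the listed genes 73.5% passed this test, 19.4% with a negative difference, and its leaf part is the difference for which these genes were listed. Among the 191 genes with a negative difference of effects, 127 passed, so these p-values are no independent evidence that the organs differ.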

How the results depend on the processing

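The tables hold only genes that the authors called, so no scaling over unchanged genes could be tried, and without counts the depth sets no stated limit. Each of 15 results (3 genes in 5 comparisons) was recomputed under 5 or 7 other settings, 87 values in all. The filter at a mean FPKM of 1 removed no gene from the 12-library fits, so 9 of these repeat the reported value and test nothing. Of the other 78, 77 kept their direction and side of the threshold. With the replicate block of leaf and root of one plate, the difference of effects of PIP2-3 was again -0.67 (standard error 0.32) and its limma adjusted p was 0.0714, and no other organ call changed. Within one organ a block could only join spaceflight and ground control libraries that share a number and no plate. It changed no member call and gave 575 called genes against 568 in leaf and 57 against 70 in root, and 2 of 3 numbers correlated best with their own in each organ. Leaving out 1 library gave 144 values, of which 36 left out a library outside the contrast, where only the error could change. Of the other 108, 100 kept their side, 6 lost and 2 gained a call, and 0 reversed. The causes were not tested. Without 1 leaf library the leaf difference ran from -1.20 to -0.67 for TIP2-2 and from -1.20 to -0.81 for NIP6-1. Without 1 root library the root difference ran from -0.62 to -0.40 for TIP2-2 and from 0.39 to 0.67 for NIP6-1. The difference of effects of PIP2-3 ran from -0.78 to -0.58. The number of the 656 genes called in root was 70, and was 43 at a pseudocount of 0.1, 10 at 0.01, 31 in 1 fit of all libraries and 1 over the 608 leaf genes. It ran from 0 to 110 without 1 library.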

Other observations

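Pearson's r between deviations of log2(FPKM + 1) from group means is given as a description over libraries that share plates. For TIP2-2 and NIP6-1 it was 0.556 over the 12 libraries, 0.495 over the 6 of leaf and 0.848 over the 6 of root. For PIP2-3 and NIP6-1 it was 0.379 over the 12, 0.331 in leaf and 0.611 in root. For PIP2-3 and TIP2-2 it was 0.192 over the 12, 0.466 in leaf and 0.251 in root. Ground control leaf replicate 3 was the highest leaf library for both TIP2-2 and NIP6-1, and spaceflight root replicate 3 the lowest spaceflight root for all 3 aquaporins.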
